A study of Mus musculus with 9 samples.

Results

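The SLAM family receptors are a small group of immunoglobulin-type surface proteins of blood cells, and their 9 mouse genes were Slamf1, Cd48, Cd244a, Ly9, Cd84, Slamf6, Slamf7, Slamf8 and Slamf9. They were chosen by gene symbol. All 9 of 9 were found among the 39179 gene rows of the count table, and all 9 were among the 18576 genes with enough reads to be tested. RNA came from sorted LSK cells (Lin- Sca1+ cKit+), the bone marrow fraction that holds stem cells and early progenitors, taken from C57BL/6 mice at 6 months of age. By the treatment protocol, all groups were given poly(I:C) intraperitoneally 5 times, an inducer of interferon that activates the Mx1 promoter driving Cre. Wild-type animals (wt_Mx+, Dnmt3a+/+ with Mx1-Cre) gave 3 libraries, mutant animals (cKI_Mx+, Dnmt3a+/m with Mx1-Cre) gave 4, and Cre-negative animals (cKI_Cre-, the conditional allele without Cre, given as Dnmt3a+/- in the design text) gave 2. In the model, Cre turns on mutant Dnmt3a at its own locus, and the Mx1 promoter also acts outside blood stem cells. The Cre-negative group differs from wild type in both the Dnmt3a allele and the absence of Cre, and the 2 cannot be told apart. Likewise, the mutant differs from the Cre-negative group in both the presence of Cre and the state of the Dnmt3a allele, which cannot be told apart either.

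Most SLAM receptors bind another copy of themselves on a neighbouring cell. Cd244a and Cd48 are an exception, being receptor and ligand of each other. Inside the cell, tyrosine-based switch motifs in the tails of most family members recruit the adaptors SAP and EAT-2 or inhibitory phosphatases. In mouse bone marrow the family is best known as a set of surface markers: long-term stem cells carry CD150, the product of Slamf1, and lack CD48 and CD244, whereas most of the multipotent progenitors in the LSK fraction carry CD48. The sort markers named by the labels include none of these receptors, so each library holds CD48-positive and CD48-negative cells together. In such a bulk library, fewer cells of a type and less RNA per cell cannot be told apart.

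The 9 genes lie on chromosome 1 of GRCm38 within 1031376 bases, from 171559193 to 172590568. From Cd244a to Slamf6, 7 of them lie close together, and Slamf9 and Slamf8 follow after a gap of 522187 bases. Cd244a (ENSMUSG00000004709, 171559193 to 171609746, plus strand) contains the whole of Ly9 (ENSMUSG00000004707, 171588624 to 171607410, minus strand) within its span. The exons of both share 0 bases in GENCODE M21, but unspliced reads of Cd244a could be counted for Ly9 unless counting used strand. Cd48 (ENSMUSG00000015355) lies at 171682009 to 171705258 and Slamf1 (ENSMUSG00000015316) at 171767127 to 171801184, both on the plus strand. Cd84 (ENSMUSG00000038147, 171839697 to 171890718) and Slamf6 (ENSMUSG00000015314, 171917515 to 171953170) follow on the plus strand, as does Slamf9 (ENSMUSG00000026548, 172475358 to 172478575) beyond the gap. Slamf7 (ENSMUSG00000038179, 171632403 to 171653035) and Slamf8 (ENSMUSG00000053318, 172581758 to 172590568) are on the minus strand. All 9 are protein-coding. Slamf7 shares 423 of its 4577 exon bases with an antisense gene, and reads from opposite strands can be told apart there only if counting used strand, which is not given in the sources used here.

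Because Dnmt3a methylates cytosines in CG pairs, the promoters of the 3 receptors that divide the LSK fraction are shown with each CG in capitals. They are RefSeq sequences of GRCm38.p6 on the plus strand, 250 bases before and 50 after the start of the gene. The Cd244a promoter is chr1:171558943-171559242, that of Cd48 chr1:171681742-171682041 and that of Slamf1 chr1:171766882-171767181.
Cd244a: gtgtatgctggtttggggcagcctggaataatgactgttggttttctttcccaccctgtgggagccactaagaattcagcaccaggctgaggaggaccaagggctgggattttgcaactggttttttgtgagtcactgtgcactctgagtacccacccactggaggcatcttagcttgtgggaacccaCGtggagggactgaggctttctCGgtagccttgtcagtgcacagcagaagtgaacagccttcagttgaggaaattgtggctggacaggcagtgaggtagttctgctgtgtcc
Cd48: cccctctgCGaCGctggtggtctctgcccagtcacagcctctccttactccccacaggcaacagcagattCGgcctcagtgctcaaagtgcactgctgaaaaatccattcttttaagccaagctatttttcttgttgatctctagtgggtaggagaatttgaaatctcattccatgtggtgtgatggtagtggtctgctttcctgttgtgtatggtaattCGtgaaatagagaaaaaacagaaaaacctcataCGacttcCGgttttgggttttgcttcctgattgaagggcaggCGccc
Slamf1: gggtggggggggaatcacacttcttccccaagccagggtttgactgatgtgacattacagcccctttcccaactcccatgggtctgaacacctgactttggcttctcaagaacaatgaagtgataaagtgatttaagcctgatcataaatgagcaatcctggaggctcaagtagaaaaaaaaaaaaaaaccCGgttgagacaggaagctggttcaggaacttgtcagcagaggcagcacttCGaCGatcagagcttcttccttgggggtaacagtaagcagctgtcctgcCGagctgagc
The Cd244a promoter held 2 CG pairs, that of Slamf1 4 and that of Cd48 7. CG reads the same on both strands, and the median over 32851 promoters of this length was 7. Of those promoters 23.3% had 2 or fewer, and 94.6% had at least 1. Among the 8 SLAM promoters matched in the table, the count ran from 1 in Slamf6 to 7 in Cd48, so none was above the median of all promoters. Methylation was not measured in these samples.

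Gene counts per library ranged from 47792306 to 58405879. Levels are given as CPM, counts divided by the TMM-scaled gene total of the library in units of 1e6. Dnmt3a, the targeted gene, stood at 148 to 173 CPM in the wild-type and mutant libraries and at 118 and 93.5 CPM in the Cre-negative ones. The defining sort marker Kit ranged from 369 to 539 CPM, and Ly6a, which encodes Sca1, from 27.2 to 44.2 CPM. The Cre-negative pair stood apart from one another: the erythroid factor Klf1 was at 5.10 CPM in cKI_Cre_neg_780 and 58.8 in cKI_Cre_neg_819, against 3.82 to 9.98 in the other 7 libraries, and the stem cell marker Procr was at 72.9 and 11.7 CPM. The lymphoid progenitor receptor gene Flt3 was at 770 and 348 CPM in that pair. Values are listed by library in the order wt_Mx_pos_820, wt_Mx_pos_823 and wt_Mx_pos_825 for wild type, cKI_Mx_pos_824, cKI_Mx_pos_827, cKI_Mx_pos_829 and cKI_Mx_pos_830 for the mutant, and cKI_Cre_neg_780 and cKI_Cre_neg_819 for Cre-negative. Nothing in the labels says whether each came from 1 animal, so the spread between libraries may be partly technical.

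Ranked by CPM per kb of exon, a scale that allows for gene length, the family fell into a well expressed and a scarce set. The length was that of all annotated exons together, 1189 bases for Cd48 and 6272 for Cd84, and the ranking depends on it. In CPM alone, the means of Cd48 and Cd84 over all libraries were 136 and 129. Cd48 led with a mean of 114.6 ± 42.0 CPM per kb (SD over all 9 libraries) and made up 70.1% of the summed level of the family. Cd84, a self-binding receptor, followed with 20.6 ± 1.92, Ly9, also self-binding, with 14.4 ± 1.84, and Cd244a with 9.25 ± 1.99 CPM per kb. Slamf1 was lower at 2.76 ± 0.529 CPM per kb, at percentile 44.8 of the genes tested, where Cd48 was at 98.5. In every library Cd48 was above Cd84, Cd84 above Ly9, Ly9 above Cd244a, Cd244a above Slamf1 and Slamf1 above Slamf8. The ranges of Ly9 and Cd244a over libraries overlapped, and those of the other neighbouring pairs down to Slamf8 and Slamf7 did not.

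**Figure D1:**
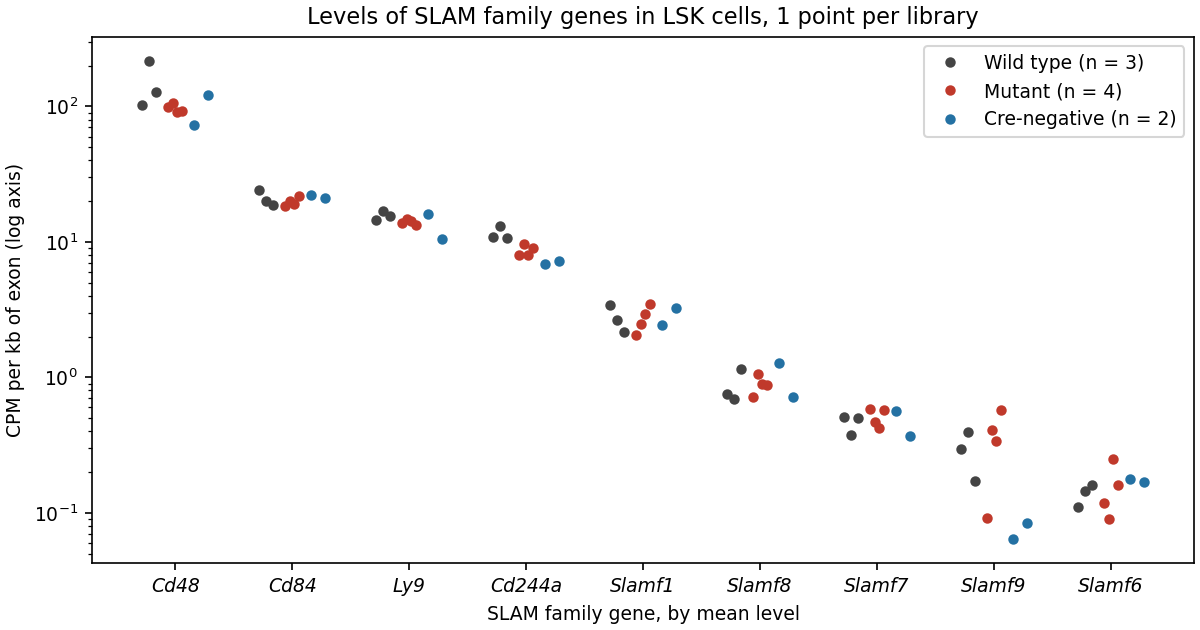
Levels of the 9 SLAM family genes in CPM per kb of exon (log axis), 1 point per library, with genes in order of their mean. Cd48 lies highest at a mean of 114.6 CPM per kb, and the 4 genes at the right are each below 1 CPM per kb on average.

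The scarce set was Slamf8, which encodes a receptor with a short tail found on myeloid cells (0.907 ± 0.216 CPM per kb over the 9 libraries), Slamf7, a receptor of natural killer and plasma cells (0.485 ± 0.0833), Slamf9 (0.270 ± 0.178) and Slamf6, a receptor of lymphocytes (0.153 ± 0.0468). Their order was not firm. Slamf7 was above Slamf9 in 7 of 9 libraries and Slamf9 above Slamf6 in 6, and in the Cre-negative mean Slamf9 came last. In CPM alone, the mean of Slamf6 (1.66, over 10832 exon bases) was above that of Slamf9 (0.355, over 1313). Counts behind these values ran from 4 to 40 for Slamf9 and from 55 to 154 for Slamf6. The order of the top 7 genes was the same in the mean of each genotype.

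Cd244a, which encodes the receptor for CD48, was the 1 member whose 3 genotype groups all lay apart, highest in wild type and lowest in Cre-negative libraries, although its differences did not pass the test across all genes. The wild-type libraries held 52.8, 63.5 and 51.9 CPM. The mutant libraries held 38.9, 47.2, 38.8 and 43.9 CPM. The Cre-negative libraries held 33.5 and 35.5 CPM. All 6 cKI libraries were thus below all 3 wild-type libraries, and both Cre-negative libraries were below all 4 mutant ones. Of all genes tested, 0.748% had every wild-type library above every other library, and 0.0807% (15 genes) had the 3 groups apart in this order. That order was read from the Cd244a values, and the share of genes with the 3 groups apart in any order was not counted.

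**Figure D2:**
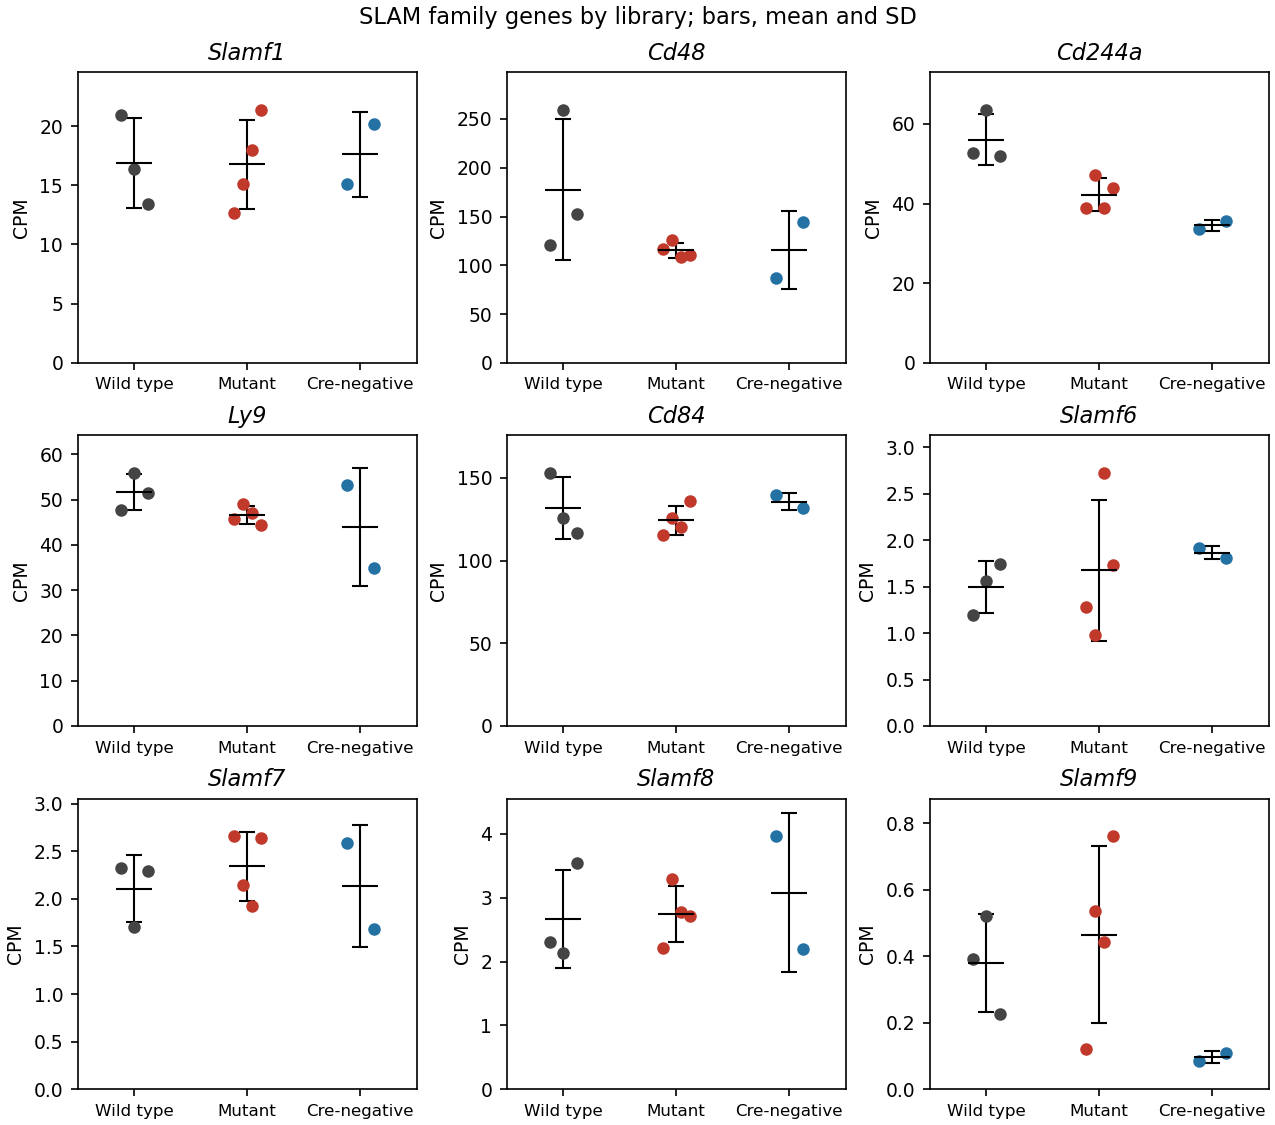
CPM of each SLAM family gene in every library by genotype, with the mean and SD of each group as bars. The 3 groups of Cd244a do not overlap (51.9 to 63.5, 38.8 to 47.2, and 33.5 and 35.5 CPM), whereas those of Slamf1, Ly9, Cd84, Slamf7 and Slamf8 do.

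Between mutant and wild type, Cd244a averaged 42.2 ± 4.11 CPM (SD, n = 4) and 56.0 ± 6.43 (SD, n = 3). The fitted log2 fold change was -0.41 (SE 0.11, 95% interval -0.66 to -0.16). Its adjusted p was 0.998 over all genes in edgeR's quasi-likelihood test (unadjusted 0.00478), so the difference did not pass. Against wild type, the Cre-negative mean of 34.5 ± 1.42 CPM (SD, n = 2) gave a log2 fold change of -0.70 (SE 0.14, 95% interval -1.01 to -0.39), with an edgeR adjusted p of 0.594 (unadjusted 5.03e-04). This was the 12th lowest p of the 18576 genes. DESeq2 called it, with a log2 fold change of -0.72 and an adjusted p of 0.00851, where the other 15 alternatives gave 0.0564 to 1; DESeq2 called 0.316% of all genes there. Mutant and Cre-negative differed by a log2 fold change of 0.29 (SE 0.13, 95% interval -0.0030 to 0.58; edgeR adjusted p = 0.912). Both comparisons with wild type use the same 3 wild-type libraries, so their likeness is not independent evidence.

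Markers of other cell types also differed in mean level between the groups in which Cd244a lay apart. The ranges of their summed levels overlapped, but some single markers lay apart. Every mutant library was above wild type for 2 of 8 B cell and 1 of 4 megakaryocyte markers (8.32% of all genes, either direction). Both Cre-negative libraries were above it for 2 of 8 B cell and 1 of 7 neutrophil markers. They were also above it for 1 of 9 monocyte, macrophage and dendritic cell markers. For 1 of 7 T and NK cell markers they were below it (11.4%, either direction). All 7 neutrophil markers had a positive log2 fold change in both comparisons with wild type, with a median of 1.44 for the mutant and 1.06 for Cre-negative, and so had all 8 B cell markers (medians 0.84 and 0.73), beside medians of -0.020 and 0.017 for all genes. None of these markers passed in edgeR, and 2 B cell and 1 neutrophil marker had an unadjusted p under 0.05, all for the mutant (3.17% of all genes). Summed neutrophil markers were at 325 CPM in cKI_Cre_neg_780 but 39.6 in cKI_Cre_neg_819, against 52.3 to 165 in wild type. Summed B cell markers were at 55.6 and 35.6 CPM in that pair, against 35.5 to 46.0 in wild type. The summed erythroid markers stood at 139 CPM in cKI_Cre_neg_780 and 1667 in cKI_Cre_neg_819, where Cd244a was at 33.5 and 35.5 CPM. The summed T and NK cell markers, cell types that carry CD244, ranged from 89.2 to 114 CPM in wild type, 82.0 to 111 in the mutant and 76.6 to 97.4 in Cre-negative libraries. Cd3e, the defining T cell marker, was at or below 0.110 CPM in every library. Of the 4 LSK genes listed (Kit, Ly6a, Cd34 and Flt3), 2 did not overlap between Cre-negative and wild type (11.4% of all genes). These were Ly6a and Cd34, lower in Cre-negative libraries, each with an unadjusted edgeR p under 0.05 (5.23%). Both also lay higher in the mutant than in Cre-negative libraries (12.4%). The sort marker Ly6a was at 27.2 and 30.6 CPM in Cre-negative libraries, against 35.4, 44.2 and 43.3 in wild type (edgeR adjusted p = 0.792). In the mutant it was at 32.7 to 39.9 CPM. The part of these cells, of Ly6a and Cd34 or of the sort in the Cd244a difference was not tested.

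Cd48 encodes the lipid-anchored ligand of CD244. Its wild-type libraries held 120.9, 259 and 153 CPM. The mutant libraries held 117, 126, 108 and 111 CPM, and the Cre-negative libraries 87.4 and 144. Wild-type library wt_Mx_pos_823 stood far above the rest, and the ranges of all 3 groups overlapped. The mean was 178 ± 72.3 CPM in wild type (SD, n = 3), 115.5 ± 7.77 in the mutant (SD, n = 4) and 116 ± 40.1 for the Cre-negative pair (SD, n = 2). The log2 fold change was -0.62 (SE 0.24) for mutant against wild type, with an edgeR adjusted p of 0.998, and -0.62 (SE 0.29) for Cre-negative against wild type, with 0.9899. Without wild-type library wt_Mx_pos_823 these became -0.24 and -0.27. With cKI_Cre_neg_780 left out the second was -0.33, and with cKI_Cre_neg_819 left out it was -1.03. In wild type the summed long-term stem cell genes, none of them a SLAM gene, were at 787, 518 and 625 CPM, so the library with the most Cd48 had the least of these; their part in the Cd48 difference was not tested.

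Slamf1, whose product CD150 marks long-term stem cells, showed no such pattern. Its levels were 20.9, 16.4 and 13.4 CPM in wild-type libraries, 12.6, 15.1, 18.0 and 21.4 in mutant ones, and 15.1 and 20.2 in the Cre-negative pair. The ranges of the 3 groups overlapped. The log2 fold changes were -0.012 (95% interval -0.48 to 0.45) for mutant against wild type, 0.061 (-0.50 to 0.62) for Cre-negative against wild type and -0.073 (-0.60 to 0.45) for mutant against Cre-negative, and none passed in edgeR. The sign of each value turned in limma-voom or with a covariate for Y-linked transcripts, that for mutant against wild type also with the 1 CPM filter or with those groups alone, and each turned with some single libraries left out. RLE scaling turned none of the 3.

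CD150 and CD48 together divide the LSK fraction, and their transcripts were therefore also compared as a ratio within each library, which does not depend on library size. Wild-type libraries held 5.78, 15.8 and 11.4 counts of Cd48 for each count of Slamf1. Mutant libraries held 9.25, 8.31, 6.03 and 5.20, and Cre-negative libraries 5.79 and 7.15. The wild-type libraries thus included both the highest ratio and one of the lowest. The mean log2 ratio of Slamf1 to Cd48 was -3.34 ± 0.74 in wild type (SD, n = 3), -2.81 ± 0.39 in the mutant (SD, n = 4) and -2.69 ± 0.21 for the Cre-negative pair (SD, n = 2). In a two-sided exact permutation test the p was 0.286 for mutant against wild type, 0.600 with Cre-negative in place of mutant and 0.667 between mutant and Cre-negative (each 0.667 after Benjamini-Hochberg adjustment over the 3 comparisons). The smallest p these group sizes allow is 0.0571, 0.200 and 0.133, so none could have passed 0.05.

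**Figure D3:**
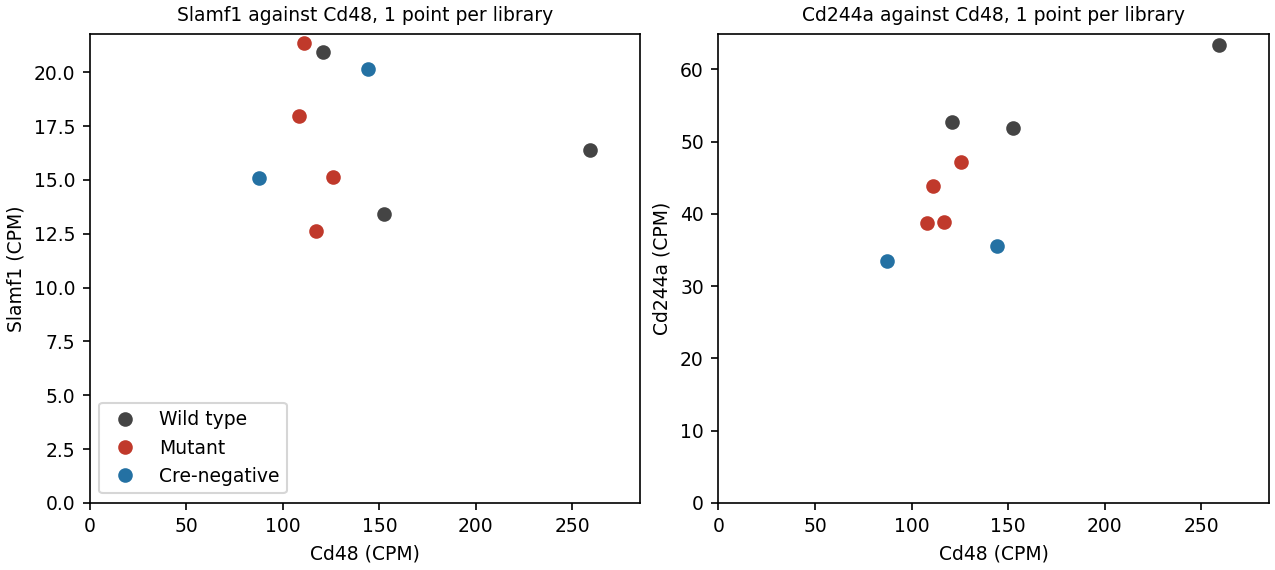
CPM of Slamf1 (left) and of Cd244a (right) against CPM of Cd48, 1 point per library, coloured by genotype. The correlation of Slamf1 and Cd48 over the 9 libraries is -0.052 on the log2 scale, and wild-type library wt_Mx_pos_823, at 259 CPM of Cd48 and 63.5 of Cd244a, is the highest point on the right.

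Ly9 and Cd84, both well expressed, varied least of the members over all libraries, with coefficients of variation of 12.7% and 9.33%. Wild-type libraries held 47.7, 55.8 and 51.5 CPM of Ly9, and mutant libraries 45.8, 49.1, 47.0 and 44.4. Its Cre-negative libraries held 53.3 and 34.8 CPM, so 1 was among the highest and the other was the lowest of all 9. With library cKI_Cre_neg_780 left out, the Cre-negative side rested on library cKI_Cre_neg_819 alone, whose spread was then taken from the other groups, and edgeR called Ly9 lower than in wild type (log2 fold change -0.60, adjusted p = 0.0373) and higher in the mutant than in Cre-negative (0.47, 0.0441). The same fits called 650 (3.37%) and 1835 (9.51%) of all 19301 genes tested, where none was called with both libraries, so the Ly9 calls came with calls across the genome. With library cKI_Cre_neg_819 left out the values were 0.030 and -0.16. Cd84 was at 153, 125 and 117 CPM in wild-type, 116, 126, 120 and 136 in mutant, and 139 and 132 in Cre-negative libraries. It had a mean of 132 ± 18.8 CPM in wild type (SD, n = 3), 124 ± 8.79 in the mutant (SD, n = 4) and 136 ± 5.35 for the Cre-negative pair (SD, n = 2). Its 95% intervals lay between -0.40 and 0.33 on the log2 scale over the 3 comparisons.

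Slamf9 had the widest differences, on few reads. Its counts were 21, 26 and 12 in wild-type libraries, 6, 30, 25 and 40 in mutant libraries, and 4 and 6 in the Cre-negative pair. The Cre-negative libraries were below every other library in CPM, but mutant library cKI_Mx_pos_824, with 0.120 CPM, lay close to their 0.0842 and 0.110. The log2 fold change was -1.93 (SE 0.77) for Cre-negative against wild type, with an edgeR adjusted p of 0.853, and 2.23 (SE 0.75) for mutant against Cre-negative, with 0.822. Neither passed. Slamf6 stood at 1.19 to 1.74 CPM in wild type, 0.983 to 2.72 in the mutant, and 1.92 and 1.81 in Cre-negative libraries, which were thus above all wild-type values (log2 fold change 0.31, 95% interval -0.58 to 1.21). Slamf7 ranged from 1.69 to 2.66 CPM and Slamf8 from 2.13 to 3.96 CPM over the 9 libraries, and for both genes the ranges of the 3 groups overlapped.

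Counted over the family, 0 of 9 members passed an adjusted p of 0.05 in edgeR in any of the 3 comparisons, where the share of all genes tested was 0% in each. DESeq2 called 38, 56 and 27 of all genes, in the order mutant against wild type, Cre-negative against wild type and mutant against Cre-negative, and limma-voom 13, 0 and 0. An unadjusted edgeR p under 0.05 was found for 2 members between mutant and wild type (Cd244a and Cd48; 3.17% of all genes), 2 between Cre-negative and wild type (Cd244a and Slamf9; 5.23%) and 1 between mutant and Cre-negative (Slamf9; 5.26%). Groups did not overlap for 1 member in the first comparison (Cd244a; 8.32% of all genes), for 3 in the second (Cd244a, Slamf9 and Slamf6; 11.4%) and for 2 in the third (Cd244a and Slamf9; 12.4%). The median log2 fold change of the 9 members was -0.012, 0.018 and -0.0043 in the same order, beside -0.020, 0.017 and -0.032 for all genes. The middle of the family thus lay close to that of all genes in each comparison.

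**Figure D4:**
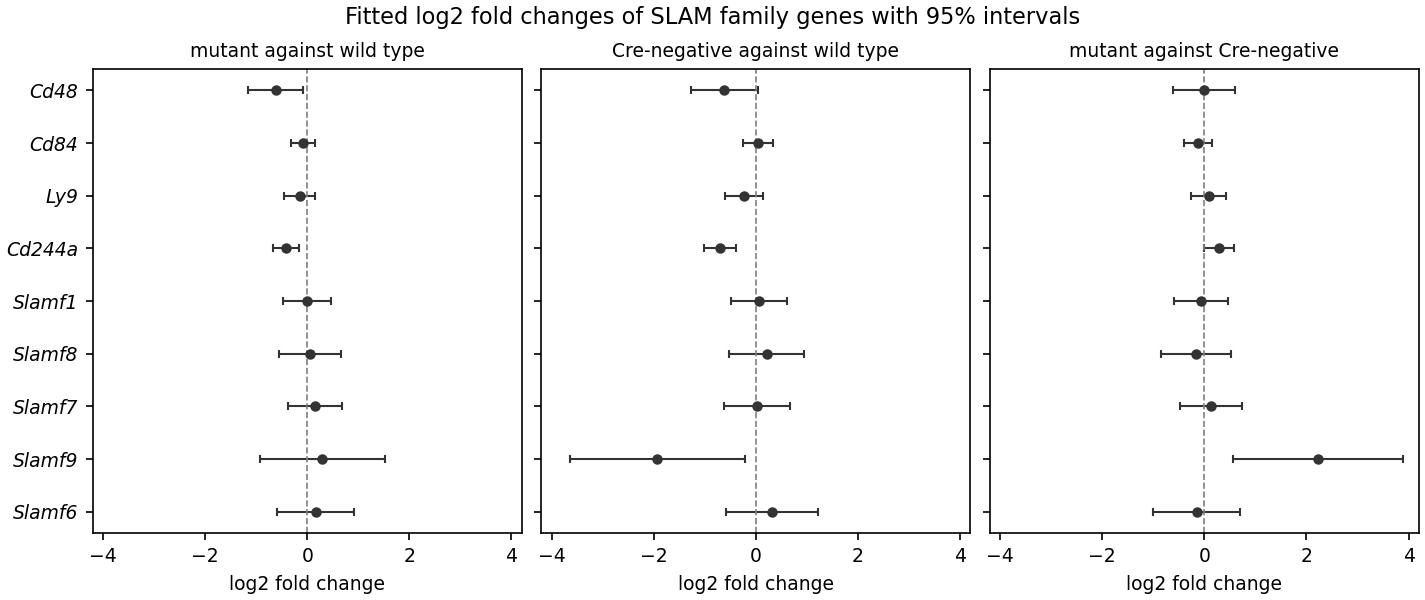
Fitted log2 fold changes of the 9 genes with 95% intervals in the 3 comparisons, from edgeR on all 9 libraries. The interval of Cd244a lies below 0 in both comparisons with wild type, and that of Cd48 only for the mutant. That of Slamf9 is the widest in each panel. It lies below 0 for Cre-negative against wild type (-3.65 to -0.22) and above 0 for mutant against Cre-negative (0.57 to 3.89).

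Members did not vary as a block over the 9 libraries. Of 36 pairs of members, 16 had a positive Pearson correlation of log2 CPM and 4 were above 0.5. The highest was that of Cd244a and Cd48, receptor and ligand (r = 0.75, Spearman 0.67), which was 0.51 over the other 8 libraries without wild-type library wt_Mx_pos_823. Slamf1 and Cd84 followed with 0.69, with or without that library. Slamf1 and Cd48 were at -0.052. These values are descriptions over libraries that share genotype and cell makeup. Among 10239 other genes with a mean of at least 5 CPM, the 3 most like Cd244a were Tiparp (r = 0.95), Plcxd2 (0.93) and Tespa1 (0.92), a gene of T cell receptor signalling. Tespa1 averaged 94.5 CPM in wild type, 66.8 in the mutant and 60.2 in Cre-negative libraries. It was picked by its correlation with Cd244a over the same libraries, so this order is not independent evidence. Those most like Cd48 were Sinhcaf (r = 0.98), Cgas, a sensor of cytosolic DNA (0.98), and Hsp90b1, a chaperone of the endoplasmic reticulum (0.97). Prpf38b (0.93), Zrsr2 (0.92) and Sec61a2 (0.90) were most like Slamf1. None of these 9 genes lies on chromosome 1.

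The other protein-coding genes around the locus served as a comparison by position. Of 49 such genes within 500000 bases of the SLAM genes, 38 were tested, and 0 passed an adjusted p of 0.05 in edgeR in any comparison. An unadjusted edgeR p under 0.05 was found for 0 of the 38 between mutant and wild type (3.17% of all genes). It was found for 4 between Cre-negative and wild type (5.23%) and 3 between mutant and Cre-negative (5.26%). Their median log2 fold change was 0.020 for mutant against wild type, 0.040 for mutant against Cre-negative and -0.024 for Cre-negative against wild type. In both comparisons with wild type, Cd244a had the lowest unadjusted p of the 47 tested genes of the region, members included.

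**Figure D5:**
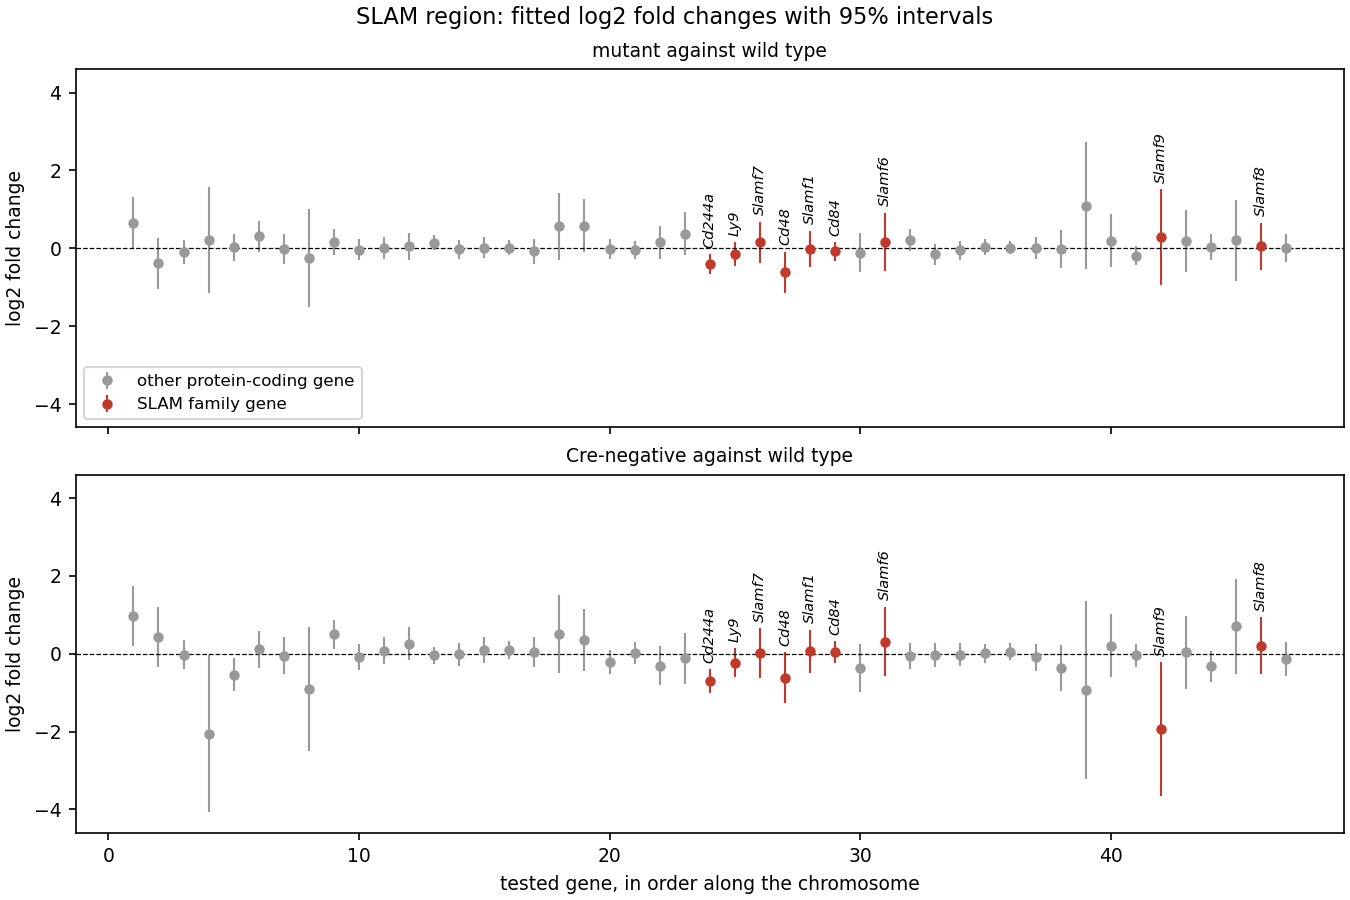
Fitted log2 fold changes with 95% intervals of the 47 tested protein-coding genes of the region in their order along the chromosome, for mutant (top) and Cre-negative (bottom) against wild type, with SLAM genes in red. Ly9, whose gene lies within Cd244a, has intervals that span 0 in both panels.

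The proteins that SLAM receptors work with include adaptors, kinases, phosphatases and further receptors. Of 19 listed adaptors, effectors and partners, 18 were in the count table and 16 were tested, and 0 passed an adjusted p of 0.05 in edgeR in either direction in any comparison. An unadjusted edgeR p under 0.05 was found for 1 of the 16, Fyn, between Cre-negative and wild type, where the share of all genes was 5.23%. Sh2d1a, which encodes the adaptor SAP, and Sh2d1b2, an EAT-2-related adaptor, were too low to be tested, at 0 to 0.126 and 0 to 0.247 CPM; a count of 0 allows 3 counts, or 0.0530 to 0.0631 CPM by library. The kinase gene Fyn, which SAP recruits, averaged 70.2 ± 3.13 CPM in wild type (SD, n = 3), 66.6 ± 4.33 in the mutant (SD, n = 4) and 57.9 ± 4.10 for the Cre-negative pair (SD, n = 2), with an edgeR adjusted p of 0.868 for Cre-negative against wild type. Among the phosphatases, Inpp5d, which encodes the inhibitory SHIP1, ranged from 286 to 377 CPM, Ptpn6 from 155 to 223 and Ptpn11, which has activating roles as well, from 146 to 181 over all libraries. Cd2, the other receptor for CD48, was at 0.0998 to 0.758 CPM. The median log2 fold change of the 16 was 0.032 for mutant against wild type, 0.052 for mutant against Cre-negative and -0.0034 for Cre-negative against wild type.

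The genes that subdivide the LSK fraction beside the SLAM receptors are also in these libraries. The list for LSK cells held the sort markers Kit and Ly6a, with Cd34 and Flt3. Of these 4 genes, 10 long-term stem cell genes and 7 multipotent and lymphoid-primed progenitor genes, 0 passed in edgeR in any comparison. Stem cell genes summed to 518 to 787 CPM in wild type, 685 to 739 in the mutant, and 918 and 408 in Cre-negative libraries cKI_Cre_neg_780 and cKI_Cre_neg_819. Slamf1 was at 15.1 and 20.2 CPM in those 2 libraries, and so was not higher where the other stem cell genes were. Cd48 was at 87.4 and 144 CPM there, lower where the stem cell sum was high. Progenitor genes, Flt3 among them, summed to 1672 to 1897 CPM in wild type, 1539 to 1797 in the mutant and 2196 and 1265 in the same Cre-negative libraries.

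Blood cell types other than LSK cells carry SLAM receptors too, and their markers varied over libraries. Summed B cell markers ranged from 35.5 to 46.0 CPM in wild type, 44.9 to 63.0 in the mutant, and 55.6 and 35.6 in Cre-negative libraries cKI_Cre_neg_780 and cKI_Cre_neg_819; Cd79a was at 0.662 to 2.34 CPM. Monocyte, macrophage and dendritic cell markers summed to 95.4 to 138 CPM in wild type, 75.9 to 137 in the mutant, and 122 and 165 in the Cre-negative pair. Neutrophil markers summed to 52.3 to 165, 134.5 to 411, and 325 and 39.6 CPM, megakaryocyte markers to 199 to 226, 191 to 262, and 145 and 262, and mast cell and basophil markers to 64.5 to 99.5, 42.4 to 81.5, and 53.2 and 135. The defining markers Csf1r (16.2 to 43.5 CPM), Ngp (2.46 to 37.7), Pf4 (18.1 to 67.5) and Cpa3 (20.5 to 74.2) were above 0 in every library, and Cd3e was at 0 in 1. Of the markers of T and NK cells, B cells, myeloid cells, erythroid cells, mast cells, neutrophils and megakaryocytes, 0 passed in edgeR. Of the 7 erythroid markers, 4 had an unadjusted edgeR p under 0.05 between Cre-negative and wild type (5.23% of all genes). Between mutant and Cre-negative, 5 had one (5.26% of all genes). The part of these cells in the SLAM values was not tested.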

How the data were processed

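Per the labels' protocols, stranded total-RNA libraries depleted of ribosomal RNA were prepared from FACS-sorted LSK cells. The submitters' processing notes name STAR, HTSeq 0.5.3p3, DESeq2 and the mouse build mm10 (GRCm38); the annotation and strand setting were not stated there or in the labels. The authors deposited raw counts per Ensembl gene, and 5 rows that name no gene (40.5% to 47.3% of counts per library) were left out. The deposited normalized table is those counts divided by 1 factor per library and was not used. Symbols, coordinates and exon lengths came from GENCODE M21 (GRCm38), which matched 37607 of 39179 identifiers.

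Genes were kept with filterByExpr by group (18576), and TMM factors set the library sizes. All 9 libraries entered 1 model with a mean for each genotype in edgeR 4.0.16 (quasi-likelihood test, two-sided, Benjamini-Hochberg adjustment over all genes at 0.05). Standard errors are the log2 fold change over the square root of F. The test step was also run, after the main fit, on counts simulated from the means and spread of these data. Alternatives were RLE scaling, DESeq2 1.42.0, limma 3.58.1 (voom with quality weights), no filter, 1 CPM in 4 libraries, only the groups compared, a covariate for Y-linked transcripts (5 libraries with, 4 without) and each library left out. R was 4.3.3. Named genes were the 9 members, 6 matched partners fixed by name and Sh2d1b2, and the first marker of each list. The 3 genes most correlated with each of Cd244a, Slamf1 and Cd48 were named too. Sh2d1b2, Ly6a, Cd34 and Dnmt3a were added after their values were seen. The members and lists were chosen with earlier results of these data known.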

Additional observations from a re-analysis of the deposited data

How the results depend on the processing

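No paired analysis was possible because the library numbers differ between the groups. The count of members past the threshold was 0 in each comparison; it was 1 in DESeq2 for Cre-negative against wild type (Cd244a), and over the left-out libraries it ranged from 0 to 1 in both comparisons with Cre-negative libraries, and was 0 throughout for mutant against wild type. Over all genes, leaving out cKI_Cre_neg_780 gave 650 calls between Cre-negative and wild type and 1835 between mutant and Cre-negative, of 19301 tested, and leaving out cKI_Cre_neg_819 gave 62 and 9 of 19497. The signs of all Cd244a values held in the 16 alternatives, with log2 fold changes from -0.45 to -0.30, -0.77 to -0.63 and 0.27 to 0.37 in the order mutant against wild type, Cre-negative against wild type and mutant against Cre-negative. Of 429 single-gene values under alternatives, 372 kept sign and side of the threshold, 3 became significant and 54 changed sign, each of the 54 from a value that had not passed; the cause was not tested.

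Sign changes for mutant against wild type were Slamf1 with the 1 CPM filter (0.017), in the 2 groups alone (0.0042) and in limma-voom (0.30), and Cd84 (0.061) and Slamf8 (-0.18) in limma-voom. For Cre-negative against wild type they were Slamf1 with the covariate (-0.015), Slamf7 in DESeq2 (-0.0025) and limma-voom (-0.091), and Slamf8 in limma-voom (-0.11). For mutant against Cre-negative they were Slamf1 in limma-voom (0.027) and Cd48 with RLE (0.022), no filter (8.69e-04), the 1 CPM filter (0.024), the 2 groups alone (0.035), DESeq2 (0.023) and limma-voom (0.0076).

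Over the left-out libraries, ranges that crossed 0 for mutant against wild type were Slamf1 (-0.14 to 0.20), Cd84 (-0.15 to 0.064), Slamf6 (-0.16 to 0.37), Slamf8 (-0.083 to 0.32) and Slamf9 (-0.030 to 0.63). For Cre-negative against wild type they were Ly9 (-0.60 to 0.030), Slamf1 (-0.18 to 0.23), Cd84 (-0.058 to 0.15), Slamf7 (-0.36 to 0.28) and Slamf8 (-0.31 to 0.56). For mutant against Cre-negative they were Cd48 (-0.27 to 0.43), Ly9 (-0.16 to 0.47), Slamf1 (-0.22 to 0.18), Slamf6 (-0.45 to 0.074), Slamf7 (-0.12 to 0.52), Slamf8 (-0.50 to 0.37) and the log2 ratio of Slamf1 to Cd48 (-0.27 to 0.029). That ratio ranged from 0.21 to 0.94 for mutant against wild type and from 0.33 to 1.06 for Cre-negative against wild type. Slamf9 was not tested with the 1 CPM filter. Its 4 to 40 counts per library, and the 2 Cre-negative libraries, limit what could be detected.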
